A study of Mus musculus with 10 samples.

Results

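The transferases described here add a water-soluble group to drugs, steroids, bile acids, bilirubin and lipid peroxides, and they comprise cytosolic glutathione S-transferases (GST), UDP-glucuronosyltransferases (UGT) and cytosolic sulfotransferases (SULT). They were taken from the deposited expression table by gene symbol, as all rows named as Gsta, Gstk, Gstm, Gsto, Gstp or Gstt, as Ugt1a, Ugt2a, Ugt2b or Ugt3a, or as Sult1 to Sult5 genes. That gave 59 of 47729 genes, namely 20 GST, 21 UGT and 18 SULT genes. Livers of female mice with a whole-body deletion of Etnppl (KO) were compared with livers of wild-type (WT) females, and each group had 8 weeks of chow followed by 10 weeks of a high-fat diet with 45% of energy from fat. Each genotype has 5 liver libraries of poly(A)-selected RNA. Etnppl encodes the enzyme that breaks down phosphoethanolamine, and the deletion is not limited to the liver. Values are FPKM, in which fragments are divided by transcript length and by library total, which puts genes of different length on 1 scale.

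Conjugation is the second phase of hepatic detoxification. GST enzymes attach glutathione to electrophiles, UGT enzymes transfer glucuronic acid from UDP-glucuronic acid, and SULT enzymes transfer sulfate from the activated donor PAPS. The conjugates leave the hepatocyte through transporters of the ABC family into bile or blood. Hepatocytes hold most of these enzymes, and their transcription in liver is known to respond to the nuclear receptors CAR and PXR, to the aryl hydrocarbon receptor, to NRF2 and to sex-dependent growth hormone secretion. Family clusters arose by tandem duplication, and the mouse has more copies than the human genome in several of them.

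Etnppl had 8.79, 7.75, 10.2, 7.36 and 9.35 FPKM in the KO livers and 27.6, 56.5, 33.0, 36.7 and 30.6 FPKM in the WT livers, so each library matched its genotype label. The KO mean was 23.6% of the WT mean (exact two-sided permutation test, p = 0.00794, the smallest that 5 against 5 libraries can give). The steps between low FPKM values placed the depth at 21300000 to 28400000 fragments in KO libraries and 22000000 to 25300000 in WT libraries. Summed hepatocyte markers were 70236 to 81938 FPKM in KO livers and 61769 to 74856 FPKM in WT livers, with 9 of 10 markers higher in KO on average (against 34.9% of all genes tested) and 4 of them at an unadjusted limma p under 0.05 (against 2.69%). No marker of the hepatocyte, cholangiocyte, Kupffer, endothelial, stellate, lymphocyte, erythroid or intestinal list was called between genotypes, and kidney and adipose markers lay between 0 and 0.59 FPKM in sum. A pancreas acinar list summed to 152 FPKM in KO replicate 3 and to 0.20 to 1.70 FPKM in the other 9 libraries. In bulk tissue, fewer cells of a type and less RNA per cell cannot be told apart, and the part of these marker levels in the results was not tested.

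No conjugation enzyme gene was called between the genotypes. Of the 59 genes, 50 reached a mean of 0.5 FPKM over the 10 libraries and were tested, and 0 of these 50 had an adjusted p under 0.05 (limma on log2(FPKM + 0.5), Benjamini-Hochberg adjustment over all 12395 genes tested), against 0.0645% of all genes tested (0.0323% higher and 0.0323% lower). At an unadjusted limma p under 0.05, 5 of the 50 were higher in KO livers (10.0%, against 2.69% of all genes tested) and 1 was lower (2.0%, against 9.07%). The 5 were Ugt1a5, Ugt1a2, Sult1a1, Gstm2 and Gstt3, and the lower one was Gstk1. Ugt1a5 and Ugt1a2 have 1311 exonic bases in common, so they do not count as separate observations. In none of the 50 did the KO and WT ranges separate, against 2.79% of all genes tested. The total of 6 (12.0%, against 11.8% of all genes tested) came to 14 without WT replicate 2 (against 11.6%). It came to 3 without KO replicate 2 (against 10.7%). With median-of-ratios scaling 8 genes were higher and 0 lower at that threshold, and over all genes tested the split of 334 higher and 1124 lower became 655 and 632.

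Counted by the sign of the log2 fold change alone, 25 of the 50 genes were higher and 25 lower in KO livers, against 34.9% higher over all genes tested. With median-of-ratios scaling 28 of the 50 and 48.9% of all genes were higher, and with quantile scaling 26 of the 50 and 48.3%, so the contrast in sign with all genes depended on the scaling. The median log2 fold change was 0.07 over the 18 tested GST genes, -0.08 over the 18 UGT genes and 0.12 over the 14 SULT genes, against -0.05 over all genes tested (-0.0040 with median-of-ratios and -0.0056 with quantile scaling). Each of these medians stayed on its side of 0 in all 22 refits with other settings or with 1 library left out. Together the 59 genes summed to 5063 ± 416 FPKM in KO livers and 4987 ± 345 FPKM in WT livers (mean ± SD over 5 libraries each, as in all such values), which was 0.695% and 0.680% of all FPKM.

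**Figure D1:**
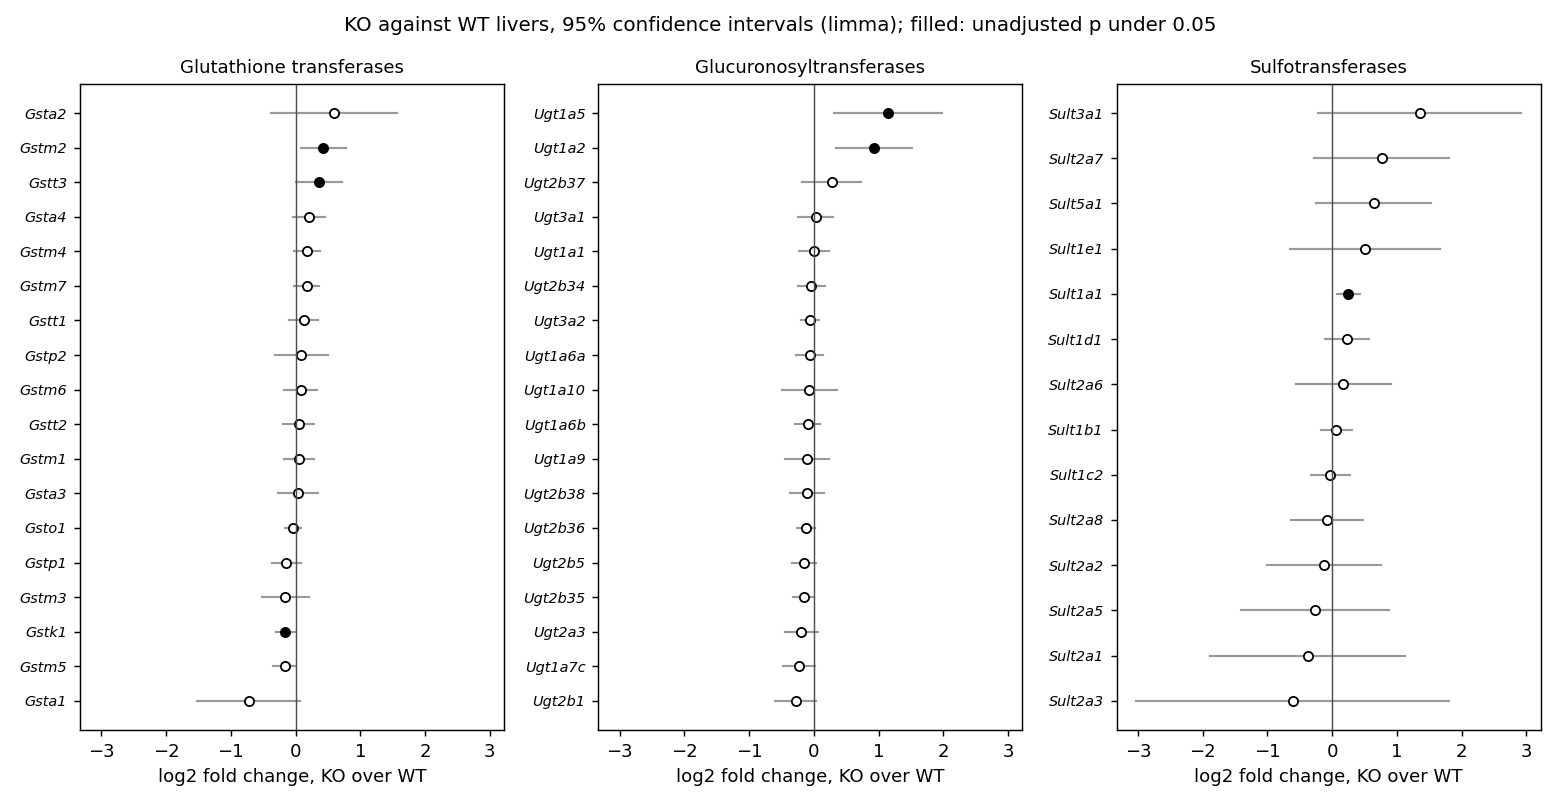
Log2 fold change of KO over WT livers (x axis) for each of the 50 tested genes, with 95% confidence intervals from limma (n = 5 libraries each). Filled points mark the 6 genes at an unadjusted p under 0.05, and the widest intervals belong to sulfotransferases such as Sult2a3 and Sult3a1.

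The set spans a wide range of abundance. By mean over the 10 libraries, 14 genes stood at 100 FPKM or more, 24 between 10 and 100 FPKM, 8 between 1 and 10 FPKM and 4 between 0.5 and 1 FPKM. The remaining 9 fell below the filter. They were Gsto2, Gstt4, Sult1c1, Sult2a4, Sult2b1, Sult4a1, Ugt1a8, Ugt2a1 and Ugt2a2, of which Sult1c1, Ugt2a1 and Ugt2a2 were listed at 0 in all 10 libraries and the others reached at most 0.61 FPKM in any library. Ugt1a10 lay just inside the filter at 0.513 FPKM and Sult2a4 just outside it at 0.398 FPKM. The most abundant gene of each superfamily was Gstm1 at 35.6% of the summed GST FPKM, Ugt1a1 at 26.7% of the UGT sum and Sult1a1 at 42.3% of the SULT sum.

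**Figure D2:**
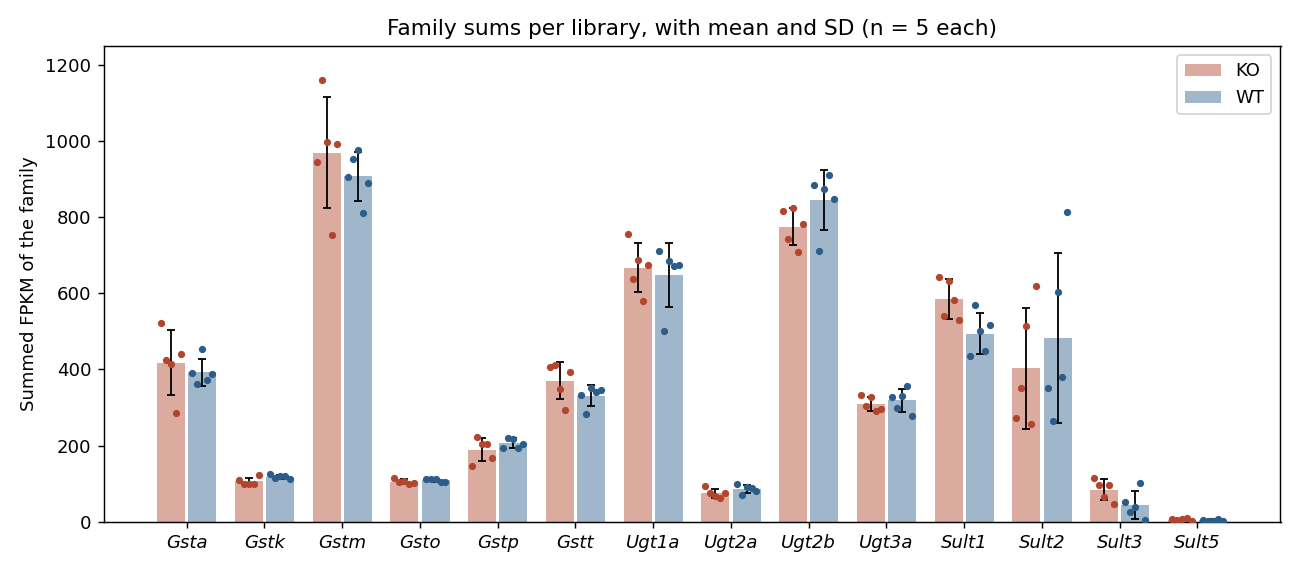
Summed FPKM of each gene family (y axis) in KO and WT livers, with bars at the mean, lines for the SD and 1 point per library (n = 5 each). Gstm, Ugt2b and Ugt1a carry the largest sums, the Sult1 sum is 586 FPKM in KO and 494 FPKM in WT livers, and the Sult2 sum has the widest spread within each genotype.

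Ugt1a5 and Ugt1a2 showed the largest differences among the genes at an unadjusted p under 0.05. Ugt1a5 had 70.1, 46.3, 42.0, 17.8 and 38.5 FPKM in the KO livers and 29.2, 10.2, 21.0, 14.4 and 17.8 FPKM in the WT livers. All KO libraries except replicate 4 lay above all WT libraries, and KO replicate 4 matched WT replicate 5. The means were 42.9 ± 18.7 FPKM in KO livers against 18.5 ± 7.18 FPKM in WT livers (SD, n = 5 each), a log2 fold change of 1.15 (95% confidence interval 0.32 to 1.98, limma unadjusted p = 0.0118, adjusted p = 0.259). Ugt1a2, at a much lower level, had 7.53, 4.79, 4.58, 2.33 and 4.54 FPKM in the KO livers and 3.70, 1.44, 2.49, 1.55 and 1.97 FPKM in the WT livers. Again 4 of 5 KO libraries exceeded all WT libraries, and KO replicate 4 was the exception. Its log2 fold change was 0.93 (0.33 to 1.52, limma unadjusted p = 0.00538, adjusted p = 0.214). Both genes stayed at an unadjusted p under 0.05 in 22 of 22 refits, with log2 fold changes of 0.94 to 1.43 for Ugt1a5 and 0.76 to 1.13 for Ugt1a2, and their adjusted p ranged from 0.151 to 0.414 and from 0.0942 to 0.356.

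Members of the Ugt1a cluster are built unusually. As background, a member's own exon near its start encodes the substrate-binding part of the enzyme, and all members splice to a common set of downstream exons. In the GENCODE M21 annotation (GRCm38, the assembly behind mm10) the 9 genes lie on the plus strand of chromosome 1 between 88055388 and 88220002, with 1311 exonic bases common to all. Ugt1a5 starts at 88166012 with a first exon of 892 bases, Ugt1a2 at 88200601 with 900 bases and Ugt1a1 at 88211959 with 913 bases. Each of these first exons is separate. The longest protein-coding transcripts of Ugt1a6b and Ugt1a7c begin with the same exon of 127 bases, although Ugt1a7c as a gene starts upstream of it, at 88095062. The first exons of Ugt1a5 and Ugt1a2 were 79.9% identical in a global alignment, whereas either was 54.1% to 57.8% identical to the first exons of Ugt1a1, Ugt1a8, Ugt1a9 and Ugt1a10. Of all stretches of 75 bases in their transcripts, 63.6% of those of Ugt1a5 and 63.3% of those of Ugt1a2 also occur in another gene, so the authors' counting had to divide many fragments among these genes, and the level of each is uncertain to that extent. The ratio of Ugt1a5 to Ugt1a2 FPKM was 8.85 ± 0.81 in KO livers and 8.36 ± 0.89 in WT livers, and both genes ranked the libraries of each genotype in the same order. Gm20528, annotated on the opposite strand across these exons, was listed at 0 FPKM in every library.

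The start regions of these Ugt1a genes are shown because these genes start at separate places inside a shared locus. They are the 250 bases before the RefSeq start on GRCm38.p6, written 5′ to 3′ on the strand of the gene. GENCODE M21 starts Ugt1a2 at 88200601, inside its RefSeq window, so the end of that window lies within the gene as annotated there. Capitals mark matches on either strand to any of 4 motifs. The first is GCGTG, which is the core of the xenobiotic response element bound by the aryl hydrocarbon receptor. The second is TGACNNNGC, which is the core of the antioxidant response element bound by NRF2. The third is GTTAAT, which is the half-site of the hepatocyte factor HNF1. The last is TATAAA, which is known as the TATA box. No printed match overlaps another.
Ugt1a5, chr1:88165762-88166011, plus strand: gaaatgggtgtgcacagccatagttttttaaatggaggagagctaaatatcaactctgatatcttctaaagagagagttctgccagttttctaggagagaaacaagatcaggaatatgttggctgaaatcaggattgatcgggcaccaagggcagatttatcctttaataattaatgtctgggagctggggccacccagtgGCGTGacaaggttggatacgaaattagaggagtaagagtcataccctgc
Ugt1a2, chr1:88200361-88200610, plus strand: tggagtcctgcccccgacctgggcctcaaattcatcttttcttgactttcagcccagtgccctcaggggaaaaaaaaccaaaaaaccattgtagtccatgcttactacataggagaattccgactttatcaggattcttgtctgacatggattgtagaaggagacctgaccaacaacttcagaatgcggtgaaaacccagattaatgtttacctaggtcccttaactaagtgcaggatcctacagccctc
Ugt1a1, chr1:88211709-88211958, plus strand: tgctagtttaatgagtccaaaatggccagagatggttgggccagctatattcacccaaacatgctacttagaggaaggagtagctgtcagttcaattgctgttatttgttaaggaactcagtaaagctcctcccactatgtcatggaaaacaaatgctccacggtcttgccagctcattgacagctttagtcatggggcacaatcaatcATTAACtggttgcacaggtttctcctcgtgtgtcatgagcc
Ugt1a5 has 1 GCGTG at 49 bases before the start, a motif present in 28.2% of all 32851 promoter windows of this length. Ugt1a2 has none of these letters in this window, and Ugt1a1 has GTTAAT on the minus strand at 41 bases before the start. The Ugt1a5 and Ugt1a2 windows were 45.6% identical, within the 41.7% to 48.0% found between Ugt1a and Sult2a windows. A match describes letters only and is not evidence of binding.

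Ugt1a1, the bilirubin-conjugating enzyme and the most abundant UGT, had 554, 462, 519, 447 and 509.8 FPKM in the KO livers and 552, 369, 523, 521 and 531 FPKM in the WT livers. The groups overlapped throughout, with WT replicate 2 the lowest of all. Its log2 fold change was 0.01 (95% confidence interval -0.22 to 0.24, limma adjusted p = 0.986), and its sign changed in 5 of 22 refits. Ugt1a6a, which conjugates small planar phenols, had 53.8, 52.5, 47.4, 40.2 and 45.5 FPKM in the KO livers and 52.7, 41.5, 53.0, 54.7 and 48.5 FPKM in the WT livers, a log2 fold change of -0.07 with KO replicate 4 the lowest library. The scarce Ugt1a7c had 1.95, 1.68, 2.25, 2.01 and 2.45 FPKM in the KO livers and 2.37, 2.08, 2.40, 2.80 and 2.95 FPKM in the WT livers, a log2 fold change of -0.23 (limma adjusted p = 0.448). The other tested genes of the locus, Ugt1a6b, Ugt1a9 and Ugt1a10, had log2 fold changes between -0.10 and -0.07.

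The locus total was 667 ± 64.8 FPKM in KO livers and 649 ± 84.2 FPKM in WT livers (SD, n = 5 each). Without Ugt1a5 and Ugt1a2 it was 620 ± 46.7 and 628 ± 78.3 FPKM. Within the locus total, Ugt1a5 made up 6.28 ± 2.27% in KO livers and 2.80 ± 0.84% in WT livers. The KO shares ran between 3.06% and 9.26% and the WT shares between 2.05% and 4.12%, so they overlapped at KO replicate 4.

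**Figure D3:**
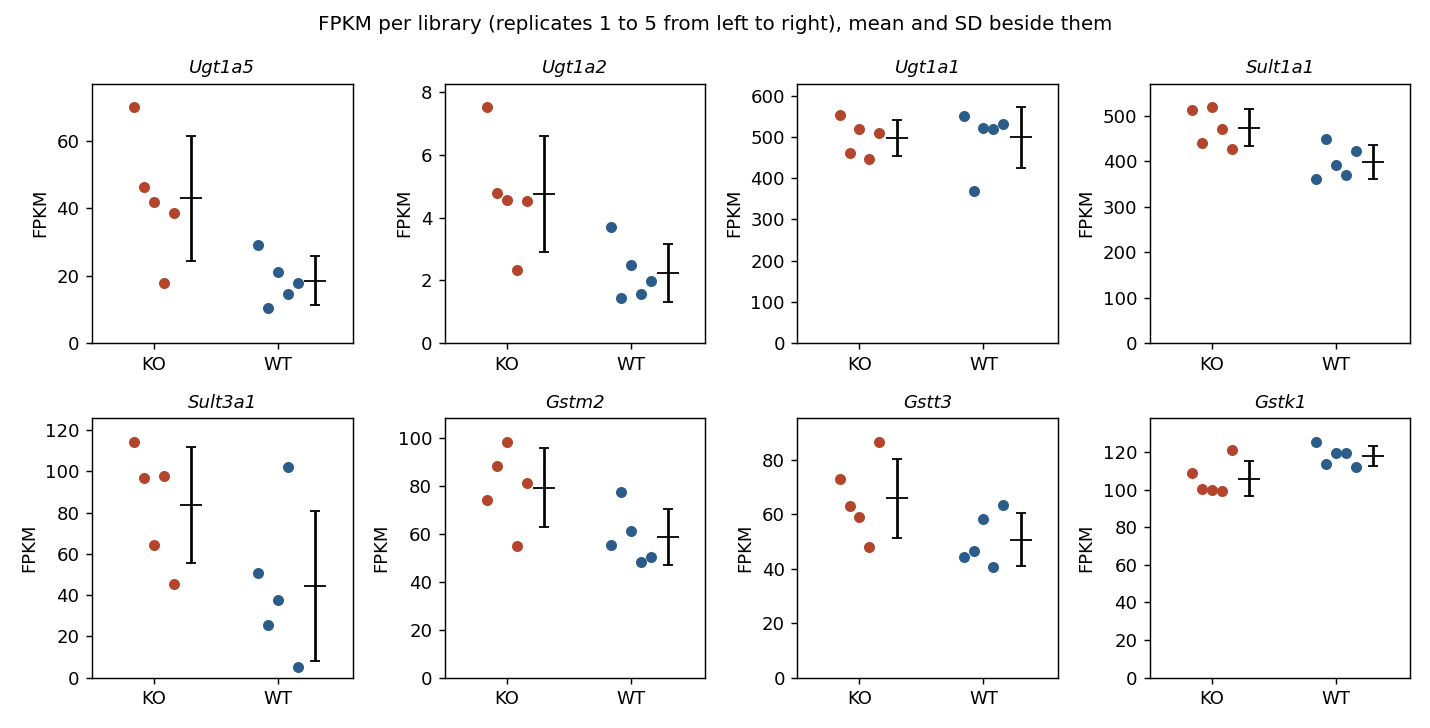
FPKM (y axis) of 8 genes in each KO and WT liver library, replicates 1 to 5 from left to right within a genotype, with the mean and SD beside them (n = 5 each). Ugt1a5 and Ugt1a2 are higher in 4 of 5 KO libraries than in any WT library, Ugt1a1 overlaps apart from WT replicate 2 at 369 FPKM, and Sult3a1 spreads widely in both genotypes.

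Ugt2b genes, which conjugate steroids, bile acids and many drugs, were mostly a little lower in KO livers. Of 7 tested, 6 had a negative log2 fold change and 1 a positive one, with a median of -0.12, against 65.1% negative and a median of -0.05 over all genes tested. With median-of-ratios scaling 5 of the 7 and 51.1% of all genes were negative. None of the 7 had an unadjusted p under 0.05. Ugt2b36, the most abundant, had 282, 262, 275, 257 and 264 FPKM in the KO livers and 297, 259, 315, 303 and 289 FPKM in the WT livers, so that 4 WT libraries exceeded all KO libraries. Its log2 fold change was -0.12 (95% confidence interval -0.26 to 0.01, limma adjusted p = 0.466). Ugt2b5 had 214, 204, 243, 191 and 221 FPKM in the KO livers and 259, 200.4, 236, 264 and 234 FPKM in the WT livers. WT replicate 2 was again low among the WT libraries, and the log2 fold change was -0.15 (limma adjusted p = 0.514).

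Ugt2b1 had 67.9, 57.5, 49.7, 50.8 and 46.4 FPKM in the KO livers and 77.2, 52.0, 68.5, 83.6 and 53.1 FPKM in the WT livers, the largest negative log2 fold change of the UGT genes at -0.28 (95% confidence interval -0.59 to 0.03, limma adjusted p = 0.464). In 3 WT libraries it stood above all KO libraries. Ugt2b35 had 27.2, 26.3, 27.5, 29.4 and 31.4 FPKM in the KO livers and 33.4, 27.7, 30.8, 30.7 and 36.1 FPKM in the WT livers, a log2 fold change of -0.16. Ugt2b34, Ugt2b37 and Ugt2b38 had log2 fold changes of -0.04, 0.27 and -0.11. Summed, the Ugt2b family came to 774 ± 48.7 FPKM in KO livers and 846 ± 79.2 FPKM in WT livers, the WT range reaching down to 709.9 FPKM in replicate 2. WT replicate 2 was the lowest WT library in 15 of the 18 tested UGT genes, against 19.7% of all genes tested. Without it, Ugt2b1, Ugt2b5, Ugt2b35, Ugt2b36 and Ugt2b38 as well as Ugt1a7c and Ugt2a3 were at an unadjusted limma p under 0.05. All were lower in KO livers, and none was called. In that refit 8.45% of all genes tested were lower at that threshold. WT replicate 2 was the lowest WT library for each of these genes. Leaving it out raises their WT means, so the shift toward lower in KO livers follows from that choice.

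The Ugt2a and Ugt3a genes overlapped between genotypes. Ugt2a3, the one Ugt2a gene above the filter, averaged 74.7 ± 12.4 FPKM in KO livers against 85.1 ± 11 FPKM in WT livers. The Ugt3a pair, whose human counterparts use sugars other than glucuronic acid, summed to 310 ± 18.6 FPKM in KO livers and 319 ± 30.2 FPKM in WT livers, with log2 fold changes of 0.03 for Ugt3a1 and -0.06 for Ugt3a2.

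Sult1a1, the main phenol sulfotransferase and the most abundant SULT, differed by a small margin in most libraries. It had 514, 440.1, 519, 471 and 428 FPKM in the KO livers and 360.1, 449, 392, 371 and 423 FPKM in the WT livers. In KO replicates 1, 3 and 4 it exceeded every WT library, and KO replicates 2 and 5 lay between the 2 highest WT libraries. The means were 475 ± 41.7 FPKM in KO livers against 399 ± 36.8 FPKM in WT livers, a log2 fold change of 0.25 (95% confidence interval 0.08 to 0.42, limma unadjusted p = 0.00818, adjusted p = 0.233). In 22 of 22 refits its unadjusted p stayed under 0.05, with log2 fold changes of 0.22 to 0.30 and adjusted p of 0.155 to 0.391. Its gene lies at chr7:126672865-126676432 on the minus strand (GRCm38), and 61 of its 1507 exonic bases are overlapped on the opposite strand by Sgf29, which averaged 10.3 ± 2.57 FPKM in KO livers against 12.4 ± 2.30 FPKM in WT livers. Sult1a1 made up most of the Sult1 family sum, which was 586 ± 52.3 FPKM in KO livers against 494 ± 54.1 FPKM in WT livers.

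Other Sult1 genes varied more. Sult1e1, the oestrogen sulfotransferase, had 14.6, 31.8, 19.8, 23.2 and 29.3 FPKM in the KO livers and 9.15, 42.4, 26.4, 5.43 and 17.6 FPKM in the WT livers. The KO libraries lay inside the WT range, and the log2 fold change of 0.51 had a 95% confidence interval of -0.65 to 1.67. Sult1d1, which acts on catecholamines in the mouse, averaged 66.6 ± 17.8 FPKM in KO livers against 55.2 ± 5.13 FPKM in WT livers. Sult1b1 and Sult1c2 had log2 fold changes of 0.06 and -0.03.

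Sult3a1, an amine sulfotransferase of the mouse, had the largest log2 fold change of the 50 genes, and one of the widest intervals. Its values were 114, 96.7, 64.5, 97.6 and 45.5 FPKM in the KO livers and 50.7, 25.6, 37.5, 102 and 5.34 FPKM in the WT livers. WT replicate 4 stood among the highest KO libraries, and WT replicate 5 was far below all others. The log2 fold change was 1.35 (95% confidence interval -0.22 to 2.92, limma adjusted p = 0.480), and it ranged from 0.74 without WT replicate 5 to 1.78 without WT replicate 4. Sult5a1 had 5.98, 4.83, 6.09, 9.04 and 2.19 FPKM in the KO livers and 3.99, 1.94, 2.04, 7.51 and 2.35 FPKM in the WT livers, a log2 fold change of 0.64 with KO replicate 4 the highest library and WT replicates 2 and 3 the lowest.

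Sulfotransferases were the most variable of the 3 superfamilies within a genotype. Their median coefficient of variation was 31.4% in KO livers and 63.3% in WT livers, against 16.4% and 11% for the GST genes, 11.7% and 14.3% for the UGT genes and 12.9% and 12.1% over all genes tested. The Sult2a cluster, hydroxysteroid sulfotransferases known for a strong female bias in mouse liver, had medians of 57.4% and 64.6% with Sult2b1 below the filter. Sult2a1, which sulfates steroids and bile acids, had 46.9, 126, 230.4, 69.6 and 322 FPKM in the KO livers and 107, 89.8, 262, 96.9 and 466 FPKM in the WT livers. Replicates 3 and 5 of each genotype were the highest, and the log2 fold change of -0.38 had a 95% confidence interval of -1.88 to 1.12 and came to 0.0016 without WT replicate 5.

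A further 4 genes of the cluster, chosen after their values were seen, had the same 4 libraries highest. Sult2a3 lay between 28.5 and 68.5 FPKM in replicates 3 and 5 of the KO and WT livers and between 1.57 and 14.5 FPKM in the other 6 libraries. Sult2a2 lay between 116 and 168 FPKM in those libraries and between 44.1 and 81.4 FPKM in the rest. For Sult2a5 the ranges were 19.0 to 36.2 FPKM and 5.6 to 12.7 FPKM, and for Sult2a6 they were 1.04 to 2.01 FPKM and 0.18 to 0.78 FPKM. Each of the 5 genes overlapped between KO and WT livers. The pattern is a description of these libraries, with no test. Sult2a1, Sult2a2 and Sult2a5 share 19.5%, 47.2% and 25.6% of their 75-base stretches with another gene, and Sult2a3 and Sult2a6 share 1.80% and 1.45%. The part of shared sequence in the pattern was not tested. The labels give no meaning to a replicate number across genotypes.

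Sult2a7 and Sult2a8, at the far end of the cluster, did not have these libraries highest. Sult2a8, which sulfates bile acids in the mouse, had 138, 110.0, 111, 125 and 84.0 FPKM in the KO livers and 142, 92.7, 129, 194 and 70.6 FPKM in the WT livers. Replicate 5 was the lowest in each genotype, as it was for Sult3a1, and the log2 fold change was -0.08 (limma adjusted p = 0.929). Sult2a7 had 11.3, 9.95, 5.0, 8.91 and 11.6 FPKM in the KO livers and 10.2, 2.21, 8.25, 8.32 and 1.95 FPKM in the WT livers. KO replicates 1 and 5 were the highest libraries, and WT replicates 2 and 5 were the lowest. Its log2 fold change was 0.76 (95% confidence interval -0.28 to 1.81, limma adjusted p = 0.560).

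**Figure D4:**
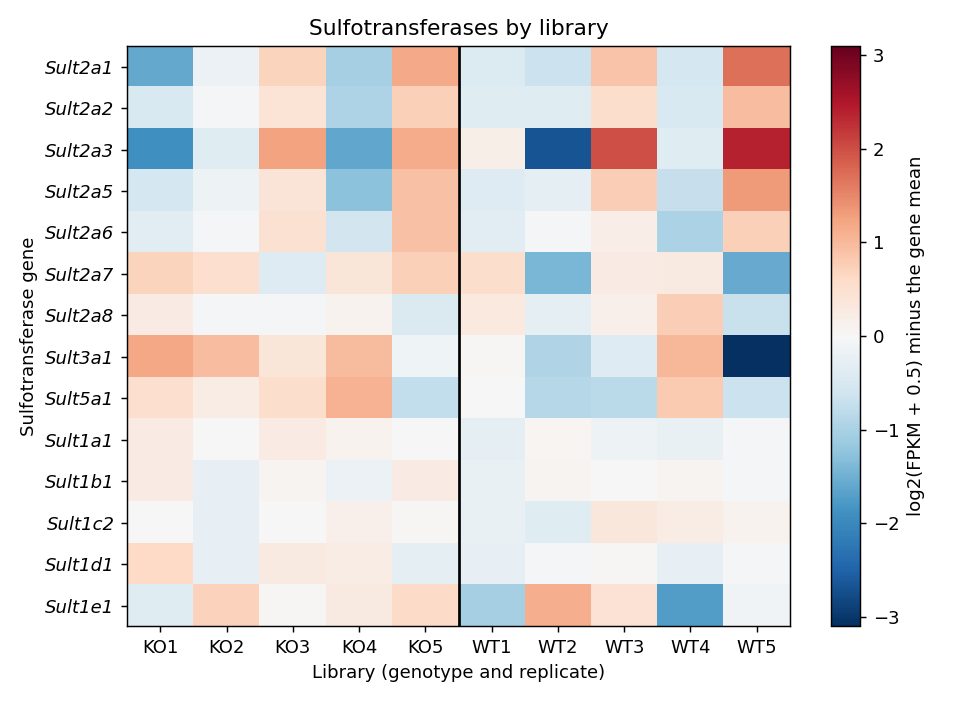
Log2(FPKM + 0.5) minus the mean of the gene over the 10 libraries (colour) for the 14 tested sulfotransferases (rows) in each KO and WT liver library (columns). Sult2a1, Sult2a2, Sult2a3, Sult2a5 and Sult2a6 are highest in replicates 3 and 5 of both genotypes, while Sult2a8 and Sult3a1 are lowest in replicate 5 of both.

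The 8 Sult2a genes lie in tandem on chromosome 7 between 13623967 and 14494230 (GRCm38). Start regions are shown for Sult2a3, Sult2a5 and Sult2a6, which were highest in replicates 3 and 5, and for Sult2a8, which did not. These are the 250 bases before the RefSeq start on GRCm38.p6, with capitals for the motifs given for the Ugt1a genes.
Sult2a5, chr7:13623717-13623966, plus strand: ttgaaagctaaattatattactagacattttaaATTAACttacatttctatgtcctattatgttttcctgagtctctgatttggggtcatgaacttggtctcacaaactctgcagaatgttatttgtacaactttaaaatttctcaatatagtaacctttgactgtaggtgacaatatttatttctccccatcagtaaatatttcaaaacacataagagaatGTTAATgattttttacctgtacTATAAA
Sult2a3, chr7:14123049-14123298, minus strand: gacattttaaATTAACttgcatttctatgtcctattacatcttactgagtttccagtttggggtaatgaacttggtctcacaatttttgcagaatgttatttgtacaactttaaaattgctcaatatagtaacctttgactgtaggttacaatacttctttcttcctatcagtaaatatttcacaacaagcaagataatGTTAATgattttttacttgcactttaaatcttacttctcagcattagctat
Sult2a6, chr7:14254871-14255120, minus strand: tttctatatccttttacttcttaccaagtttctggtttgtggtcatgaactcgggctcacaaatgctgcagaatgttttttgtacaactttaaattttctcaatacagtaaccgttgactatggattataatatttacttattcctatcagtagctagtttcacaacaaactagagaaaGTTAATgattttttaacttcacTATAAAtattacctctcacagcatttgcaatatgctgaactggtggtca
Sult2a8, chr7:14446588-14446837, minus strand: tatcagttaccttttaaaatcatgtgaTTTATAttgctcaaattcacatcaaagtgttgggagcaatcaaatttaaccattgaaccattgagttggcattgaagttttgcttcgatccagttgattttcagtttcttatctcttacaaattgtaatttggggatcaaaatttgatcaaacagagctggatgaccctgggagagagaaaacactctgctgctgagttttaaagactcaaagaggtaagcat
GTTAAT stands on the plus strand at 28, 51 and 71 bases before the start in Sult2a5, Sult2a3 and Sult2a6, and again on the minus strand at 217 bases in Sult2a5 and 240 bases in Sult2a3. It is not among the letters of the Sult2a8 window. GENCODE M21 starts Sult2a8 at 14446769, inside this RefSeq window, so part of the window lies within the gene as annotated there. The windows of Sult2a3, Sult2a5 and Sult2a6 lie outside their annotated genes, so Sult2a8 may not be a like region in motifs or identity. Over the 51 transferase genes with a RefSeq window, 13 hold GTTAAT (25.5%), against 6.43% of all windows. TATAAA is in 10 of them (19.6%, against 12.4%), GCGTG in 9 (17.6%, against 28.2%) and TGACNNNGC in 3 (5.88%, against 10.2%). The transferase shares count genes, whereas the background shares count windows. A gene with several windows has more chances to hold a motif, so the shares are not directly comparable. The Sult2a5 and Sult2a3 windows were 73.3% identical, Sult2a3 and Sult2a6 69.4%, and Sult2a5 and Sult2a6 57.1%, while each was 47.5% to 49.4% identical to Sult2a8. Windows that descend from a common copy share motifs, so these matches do not count separately.

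More glutathione transferases were higher than lower in KO livers, and none was called. Of the 18 tested, 12 had a positive and 6 a negative log2 fold change. The mu class lies at chr3:107895821-108044894 (GRCm38) and 5 of its 7 genes were higher. Gstm1, the dominant hepatic GST, had 755, 951, 772, 591 and 783 FPKM in the KO livers and 748, 754, 799, 650.4 and 737 FPKM in the WT livers. The groups overlapped, with KO replicate 2 the highest and KO replicate 4 the lowest, and the log2 fold change was 0.05 (limma adjusted p = 0.887). Gstm2 had 73.9, 88.3, 98.3, 55.0 and 81.0 FPKM in the KO livers and 55.4, 77.5, 61.0, 48.4 and 50.4 FPKM in the WT livers. KO replicates 2, 3 and 5 exceeded every WT library, and KO replicate 4 fell among the WT libraries. The means were 79.3 ± 16.3 FPKM in KO livers against 58.5 ± 11.7 FPKM in WT livers, a log2 fold change of 0.43 (95% confidence interval 0.08 to 0.78, limma unadjusted p = 0.0202, adjusted p = 0.309). Its unadjusted limma p was 0.0506 without KO replicate 2, 0.0521 without KO replicate 3 and under 0.05 in the other 20 of 22 refits.

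Gstm5 had 5.38, 5.47, 5.45, 5.38 and 5.75 FPKM in the KO livers and 5.49, 6.13, 7.05, 6.89 and 5.74 FPKM in the WT livers. The KO libraries were close together, and the log2 fold change was -0.17 (limma adjusted p = 0.443). Its exons are overlapped on the opposite strand by 4933431E20Rik over 178 of 1278 bases, and the strand setting of the authors' counting is not given. The remaining mu genes, Gstm3, Gstm4, Gstm6 and Gstm7, had log2 fold changes between -0.16 and 0.17.

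The theta class handles small halogenated compounds and epoxides. Gstt3 had 72.9, 63.0, 58.9, 47.9 and 86.6 FPKM in the KO livers and 44.4, 46.4, 58.4, 40.8 and 63.3 FPKM in the WT livers. KO replicates 1 and 5 exceeded every WT library and the rest overlapped, for a log2 fold change of 0.37 (95% confidence interval 0.01 to 0.72, limma unadjusted p = 0.0424, adjusted p = 0.403). It kept an unadjusted p under 0.05 in 15 of 22 refits, and 524 of its 3842 exonic bases also belong to Gm20441, annotated on the same strand. Gstt1 had 300.7, 300.6, 247, 211 and 261 FPKM in the KO livers and 250.3, 201, 259, 257 and 238 FPKM in the WT livers, a log2 fold change of 0.12 with overlapping groups. Gstt2 had a log2 fold change of 0.05. All 3 tested theta genes were higher on average, and the family sum was 371 ± 49.5 FPKM in KO livers and 331 ± 27.3 FPKM in WT livers.

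Gstk1, the kappa enzyme of mitochondria and peroxisomes, was the one gene of the set on the lower side at an unadjusted p under 0.05. It had 109, 100.2, 99.9, 99.3 and 121 FPKM in the KO livers and 125, 114, 119, 119 and 112 FPKM in the WT livers. KO replicates 1 to 4 lay below all WT libraries, and KO replicate 5 stood among the highest WT libraries. The means were 106 ± 9.51 FPKM in KO livers against 118 ± 5.26 FPKM in WT livers, a log2 fold change of -0.16 (95% confidence interval -0.31 to -0.01, limma unadjusted p = 0.0361, adjusted p = 0.383). The unadjusted limma p was under 0.05 in 11 of 22 refits. It was highest at 0.166 with median-of-ratios scaling, where the log2 fold change was -0.11. It was 0.0642 to 0.0864 without KO replicate 2, 3 or 4 or WT replicate 1, 3 or 4. With quantile scaling, scaling without the top 50 genes, the prior without trend or robustness, or the replicate block, it was 0.0555 to 0.0576.

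The alpha class conjugates products of lipid peroxidation and binds bilirubin and haem. Gsta3, its main hepatic member, had 463, 372, 357, 246 and 378 FPKM in the KO livers and 345, 297, 404, 344 and 346 FPKM in the WT livers. The WT libraries lay within the KO range, and the log2 fold change was 0.04 (limma adjusted p = 0.931). Gsta4, which favours hydroxyalkenal products of lipid peroxidation, had 37.6, 33.6, 37.9, 29.5 and 41.4 FPKM in the KO livers and 34.6, 35.7, 29.6, 24.0 and 32.5 FPKM in the WT livers. KO replicates 1, 3 and 5 lay above all WT libraries, for a log2 fold change of 0.20 (95% confidence interval -0.04 to 0.45, limma adjusted p = 0.508).

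Gsta1 and Gsta2 are low and closely related to other genes. Gsta1 had 0.58, 0.44, 0.58, 0.06 and 0.54 FPKM in the KO livers and 0.46, 2.22, 2.43, 0.35 and 0.70 FPKM in the WT livers. WT replicates 2 and 3 were the highest, and the log2 fold change was -0.72 (95% confidence interval -1.52 to 0.07, limma adjusted p = 0.459). It shares 84.7% of its 75-base stretches with other genes, most with Gm3776, so its level is uncertain. Gsta2 averaged 18.1 ± 4.83 FPKM in KO livers against 13.4 ± 8.25 FPKM in WT livers, and 36.6% of its stretches are shared.

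Gstp1, the pi enzyme, had 142, 217, 197, 199 and 163 FPKM in the KO livers and 188, 214, 211, 191 and 198 FPKM in the WT livers. KO replicates 1 and 5 were below all WT libraries and the other KO libraries overlapped them, with a log2 fold change of -0.14 (limma adjusted p = 0.633). Gstp1 and Gstp2 share 29.2% and 50.1% of their stretches with another gene, Gstp2 had a log2 fold change of 0.09, and their sum was 189 ± 30.4 FPKM in KO livers and 206 ± 12.8 FPKM in WT livers. Gsto1, an omega enzyme that also reduces dehydroascorbate, averaged 105 ± 6.06 FPKM in KO livers against 108 ± 3.85 FPKM in WT livers.

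Single libraries were the lowest or the highest for many of these genes at once. KO replicate 4 was the lowest KO library in 26 of the 50 tested genes, including 12 of 18 GST and 11 of 18 UGT genes, against 17.5% of all genes tested. KO replicate 1 was the highest in 18 of the 50, against 9.50% of all genes tested. Among the WT libraries, replicate 2 was the lowest in 21 of 50. The sum of the 59 genes was lowest in KO replicate 4 at 4324 FPKM and WT replicate 2 at 4484 FPKM, whereas the other 8 libraries lay between 4906 and 5353 FPKM.

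The rest of the pathway was covered by lists of related genes, and none of their genes was called. Among other conjugating enzymes, 12 were tested, with 0 higher and 2 lower at an unadjusted limma p under 0.05, where all genes tested had 2.69% higher and 9.07% lower. Mgst1, the microsomal glutathione transferase of the endoplasmic reticulum and outer mitochondrial membrane, had 1782, 1708, 1805, 1619 and 1842 FPKM in the KO livers and 1954, 1876, 2311, 2224 and 2055 FPKM in the WT livers. All KO libraries lay below all WT libraries (log2 fold change -0.25, limma adjusted p = 0.198). Tpmt, which methylates thiopurines, averaged 13.1 ± 1.2 FPKM in KO livers against 15.2 ± 1.30 FPKM in WT livers. A list for the supply and turnover of glutathione, UDP-glucuronic acid and PAPS had 17 tested genes. Of these, 0 were higher and 2 lower at that threshold (11.8%, against 9.07% of all genes tested). The list also holds Gpx1, which uses glutathione, Slc33a1, an acetyl-CoA transporter, and Bpnt1 and Impad1, which act on the by-product of sulfation. Gclc, the catalytic subunit of the rate-limiting enzyme of glutathione synthesis, averaged 83.7 ± 7.58 FPKM in KO livers against 110.1 ± 14.3 FPKM in WT livers (limma adjusted p = 0.143). Impad1, a phosphatase that removes the by-product of sulfation in the Golgi, averaged 6.34 ± 0.630 FPKM in KO livers against 7.65 ± 0.302 FPKM in WT livers. Ugdh, which makes UDP-glucuronic acid, averaged 40.6 ± 3.86 FPKM in KO livers against 44.0 ± 6.77 FPKM in WT livers, and Papss2, which makes PAPS, averaged 48.2 ± 11.2 FPKM in KO livers against 49.6 ± 5.75 FPKM in WT livers.

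Among 17 tested regulators, 2 were higher (against 2.69% of all genes tested) and 1 lower (against 9.07%) at an unadjusted limma p under 0.05. Nfe2l2, which encodes NRF2, the activator of many GST genes, had 26.2, 28.9, 26.01, 24.5 and 25.97 FPKM in the KO livers and 36.9, 33.4, 32.2, 31.7 and 33.6 FPKM in the WT livers. The ranges did not overlap, and the log2 fold change was -0.35 (95% confidence interval -0.48 to -0.21, limma adjusted p = 0.0795), which missed the threshold. All 10 tested genes of a list of NRF2 targets outside the transferases had negative log2 fold changes, against 65.1% of all genes tested, and 5 of them had an unadjusted p under 0.05, against 9.07%. Their median was -0.22. Gclc and Gclm, on this list, are also among the supply genes above, so the lists are not separate. With median-of-ratios scaling 51.1% of all genes tested were negative and 5.10% were lower at that threshold. The NRF2 target list was not counted again with that scaling. Nqo1, a quinone reductase of that list, averaged 5.89 ± 0.592 FPKM in KO livers against 7.64 ± 0.977 FPKM in WT livers. The GST genes, at 12 higher of 18, did not share that direction, and the difference between the lists was not tested. Nr1i3, which encodes CAR, averaged 230.2 ± 43 FPKM in KO livers against 232 ± 24.1 FPKM in WT livers, and Nr1i2, which encodes PXR, averaged 41.5 ± 6.83 FPKM in KO livers against 36.2 ± 7.61 FPKM in WT livers. Bcl6, a transcriptional repressor, averaged 4.5 ± 1.83 FPKM in KO livers against 2.76 ± 0.612 FPKM in WT livers. The other regulator on the higher side was Ahr, which encodes the aryl hydrocarbon receptor. It averaged 11.9 ± 1.13 FPKM in KO livers against 10.4 ± 1.02 FPKM in WT livers (log2 fold change 0.19, limma adjusted p = 0.413).

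The 10 tested target genes of CAR, PXR and the aryl hydrocarbon receptor included 2 that were higher at an unadjusted limma p under 0.05, namely Cyp1a2 and Ces2a (against 2.69% of all genes tested), and 0 that were lower (against 9.07%). Cyp1a2, an aryl hydrocarbon receptor target that oxidises planar amines, averaged 149 ± 16.4 FPKM in KO livers against 122 ± 18.5 FPKM in WT livers, and Ces2a, a carboxylesterase, averaged 50.7 ± 5.42 FPKM in KO livers against 43.9 ± 3.37 FPKM in WT livers. Of 10 tested transporters of conjugates, 1 was higher and 1 lower at that threshold (against 2.69% and 9.07% of all genes tested), namely Abcc6 at 31.5 ± 2.08 FPKM in KO livers against 27.3 ± 3.68 FPKM in WT livers and Abcc4 at 0.882 ± 0.135 FPKM in KO livers against 1.16 ± 0.183 FPKM in WT livers. The 5 tested genes of a list for the cleavage of glucuronides and sulfates had 0 at that threshold. They were Gusb, Arsa, Arsb, Sumf1 and Sumf2, of which Sumf1 and Sumf2 encode sulfatase-modifying factors rather than cleaving enzymes. The median log2 fold change was -0.09 over the other conjugating enzymes, -0.08 over the supply list and -0.05 over the regulators. It was 0.06 over the receptor targets, 0.02 over the transporters and -0.06 over the cleavage list, against -0.05 over all genes tested.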

How the data were processed

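The deposited table gives FPKM per gene, made by the authors from paired-end reads of poly(A)-selected liver RNA and rounded to 2 decimals. The submitters' processing notes name the build mm10 and the tools STAR, RSEM, DESeq2, DESeq and R 4.0.2. They give no annotation release, filter or strand setting. Of the columns, 2 without a name were not used. As FPKM holds no raw counts, count models were not fitted, and abundant transcripts can shift all other values of a library.

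The KO and WT groups come from the labels. These do not say that the samples came from separate animals, so p-values measure the spread between samples, which may be technical. Depth was estimated from genes with 1 annotated transcript of 350 to 1000 bases, where 94.9% to 97.4% of low values came within 0.1 fragment of a whole number. The 12395 genes averaging 0.5 FPKM or more were tested in 1 fit on log2(FPKM + 0.5) with limma 3.58.1 in R 4.3.3. The test was two-sided with a trend and a robust prior, and p-values were adjusted by Benjamini-Hochberg with a threshold of 0.05. The script was tested on simulated data first. Fold changes on this scale understate those of low genes. Intervals are 95% confidence intervals.

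The genes and lists were chosen with earlier results of these data known. Values in every library are given for the 4 tested genes of lowest p and the 3 of highest mean in each superfamily and for 12 fixed genes, and from each pathway list up to 2 genes of lowest p and 5 fixed ones are named. Other names were chosen after their values were seen. Alternatives were pseudocounts of 0.1 and 1, a minimum mean of 0.1 or 2 FPKM or none, median-of-ratios, fixed-sum and quantile scaling, scaling that leaves out the top 50 genes, a prior without trend or robustness, array weights, a replicate block, an adjusted p of 0.1, and each library left out. Coordinates are from GENCODE M21 (GRCm38) and promoters from RefSeq (GRCm38.p6), with entries for 51 of the 59 genes.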

Additional observations from a re-analysis of the deposited data

Results flagged for a closer look

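A library far from the other 4 of its genotype was found in 3 of 54 groups of 5 libraries, which covered Etnppl and the 26 named genes in each genotype. Chance alone gives about 1 in 20. Gsta1 stood at 0.06 FPKM in KO replicate 4, below the other KO livers at 0.44 to 0.58 FPKM. Gstm5 stood at 5.75 FPKM in KO replicate 5, above the other KO livers at 5.38 to 5.47 FPKM. Ugt1a1 stood at 369.25 FPKM in WT replicate 2, below the other WT livers at 521 to 552 FPKM.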

How the results depend on the processing

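No transferase gene was called by limma at an adjusted p under 0.05 in any of the 22 refits, or at 0.1 in the fit as reported. The lowest adjusted p over the refits was 0.0942, for Ugt1a2 with the replicate block. The 6 genes at an unadjusted p under 0.05 (against 11.8% of all genes tested) became 11 with array weights (against 12.5%) and 14 with the replicate block (against 12.2%). With 1 library left out they were 3 to 14 (against 10.2% to 12.4%). On the higher side, 5 became 8 with median-of-ratios scaling (against 5.28%) and 9 with the block (against 3.25%). It was 3 to 8 with 1 library left out (against 2.44% to 3.58%). On the lower side, 1 became 0 with median-of-ratios scaling, quantile scaling or scaling without the top 50 genes (against 5.10%, 5.48% and 7.16%). It became 6 with array weights (against 9.21%) and 5 with the block (against 8.96%). With 1 library left out it was 0 to 8 (against 7.11% to 9.61%). The cause was not tested.

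Among the named genes, 5 changed sign in some setting. Gsta3, at a log2 fold change of 0.04, came to -0.034 with array weights, -0.011 without WT replicate 2 and -0.051 to 0.18 over all libraries left out in turn. Gstm1, at 0.05, ranged from -0.030 without KO replicate 2 to 0.14. Sult2a1, at -0.38, ranged from -0.72 to 0.0016 without WT replicate 5. Sult2a8, at -0.08, came to 0.024 without KO replicate 5 and ranged from -0.27 to 0.098 without WT replicate 4. Ugt1a1, at 0.01, came to -0.044 with array weights, to -0.032, -0.0082 and -0.0020 without KO replicates 1, 3 and 5, and ranged from -0.097 without WT replicate 2 to 0.047.

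Same-numbered KO and WT libraries correlated at -0.02 to 0.20 in their deviations from the group means, with 2 of 5 pairs over 0.1. Of the KO libraries, 3 of 5 were closest to their own number. These correlations do not settle whether the numbers pair the samples. The labels do not pair them, so the reported fit did not, and the replicate block was run as an alternative. At 21300000 to 28400000 fragments per library, genes below 0.5 FPKM were not tested.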
